A study of Rattus norvegicus with 6 samples.

Results

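The calmodulin and calcium/calmodulin-dependent kinase (CaM kinase) genes Calm2, Calm3, Camk2a, Camk2b, Camk2d, Camk2g and Camk4 were read by symbol from a table of 37991 genes of healing rat Achilles tendon. All 7 were present and passed the filter on low counts, among 18134 genes tested. Every rat was a male Sprague-Dawley, an outbred laboratory strain, aged 8 weeks at open Achilles tenotomy (complete surgical cutting of the tendon). The labels add that the tendon was repaired, whereas the surgical methods of the study describe closing of the skin. The PM group (3 samples) inhaled fine particulate matter from a coal-fired plant 3 times a week for 6 weeks in a closed chamber, and the non-PM group (3 samples) had the same surgery without this exposure. The comparison asks whether these calcium signalling genes differed between the groups in the healing tendon.

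Calmodulin is a small calcium sensor present in every cell, and rat Calm2 and Calm3 are separate genes for the same protein. Calcium-loaded calmodulin switches on the CaM kinases. Camk2a, Camk2b, Camk2d and Camk2g encode the alpha, beta, delta and gamma subunits of CaMKII, which assemble into a ring-shaped holoenzyme that can stay active after the calcium signal has passed. Camk4 encodes a nuclear kinase that phosphorylates the transcription factor CREB and is best known from neurons and T lymphocytes. In muscle, CaMKII acts on calcium release and re-uptake proteins of the sarcoplasmic reticulum, and the beta subunit is the main form of skeletal muscle.

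The libraries held 46357986 to 62298837 counts. All 9 tendon markers checked (Scx, Tnmd, Mkx, Thbs4, Fmod, Comp, Col1a1, Col1a2 and Dcn) were detected in every library, but their summed share of counts was 0.597% in non-PM 3 against 3.82% to 7.68% in the other 5 libraries. All 20 skeletal muscle markers were also detected in every library, with a summed share of 3.35%, 8.23% and 4.69% in PM 1 to 3 and of 5.08%, 2.43% and 11.7% in non-PM 1 to 3. By these summed shares, non-PM 3 stood apart as the library lowest in tendon and highest in muscle transcripts. Marker by marker, in the scaled levels used below, Tnmd, Fmod, Comp, Col1a1, Col1a2 and Dcn were lowest in non-PM 3. Scx, Mkx and Thbs4 were not, and Scx was higher there than in every library but PM 1.

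None of the 7 genes passed edgeR's quasi-likelihood test of PM against non-PM with Benjamini-Hochberg adjustment (lowest adjusted p = 0.942), and neither did any other gene (0.00% of all genes tested). The relaxed criterion takes its cut-offs from the study's methods, a minimum fold change of 1.2 and an unadjusted p under 0.05. It was applied here to the edgeR fit, a test that those methods do not name. By this criterion, 0 of 7 members passed against 2.96% of all genes, or 537 genes. At an unadjusted p under 0.05 alone the numbers were likewise 0 and 537. The DESeq2 Wald test called 8 genes at the adjusted threshold, and 0 of the 7. The log2 fold change was above 0 for 4 of 7 members against 49.5% of all genes. The median log2 fold change was 0.18 for the members and -0.00 for all genes, and the members' median was -0.04 without PM 2, -0.03 without non-PM 2 and 0.07 with a muscle score as covariate. Levels are given as CPM, the count rate relative to library size after edgeR's TMM scaling, and on this scale the groups stood apart without overlap for 0 of 7 members against 9.66% of all genes. Every member thus had overlapping groups.

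**Figure D1:**
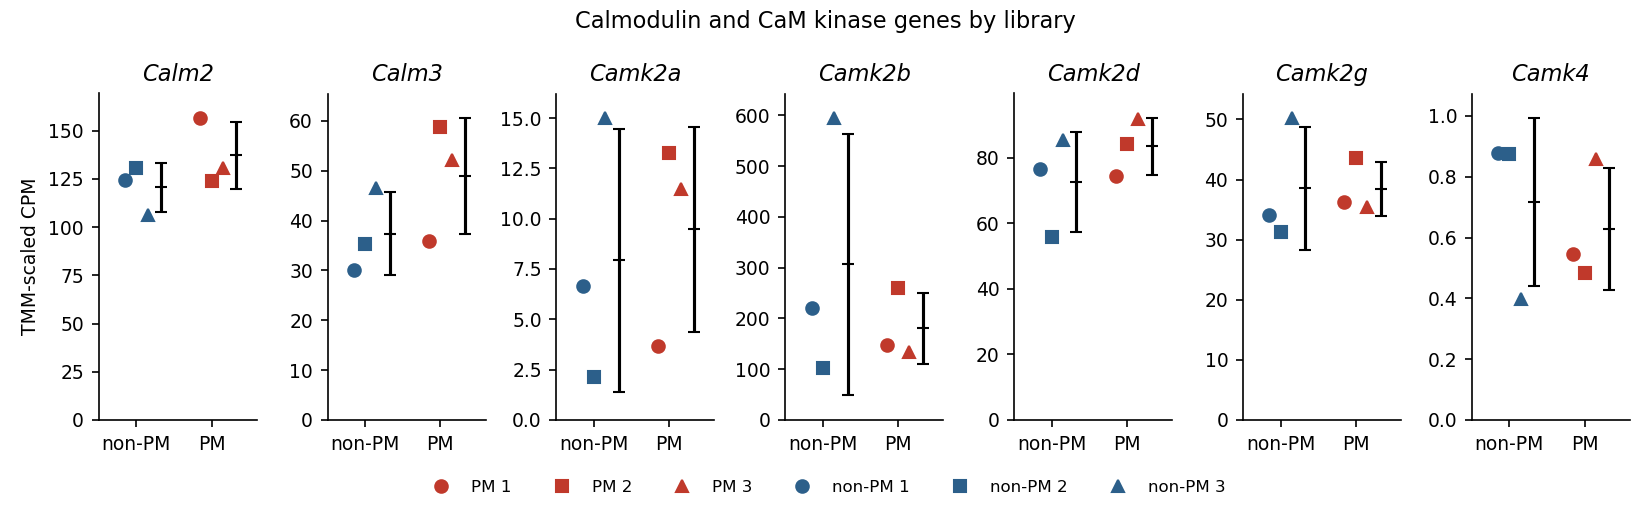
Level of each gene in every library, as TMM-scaled CPM, with the non-PM group on the left and the PM group on the right of each panel and marker shapes for the replicate number. Points of the groups overlap in every panel, and non-PM 3 stands far above the rest for Camk2b, at 595.3 CPM.

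Of the calmodulin genes, Calm2 was at 156.8, 124.2 and 130.7 CPM in PM 1 to 3, against 124.7, 130.6 and 106.4 CPM in non-PM 1 to 3. The highest library was in the PM group and the lowest in the non-PM group, with the other 4 intermixed between 124.2 and 130.7 CPM. The group means were 137.2 ± 17.2 and 120.6 ± 12.6 CPM (SD, n = 3 each), a log2 fold change of 0.18 ± 0.19 (SE, 95% interval -0.27 to 0.63, edgeR adjusted p = 0.942). It was 0.07 without PM 1 and 0.08 without non-PM 3. Calm2 was the most even of the 7 genes, its highest library holding 1.47 times the CPM of its lowest.

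Calm3 was at 36.0, 58.7 and 52.2 CPM in PM 1 to 3, against 30.2, 35.4 and 46.5 CPM in non-PM 1 to 3. PM 2 and PM 3 exceeded every non-PM library, while PM 1 fell among them. The means were 49.0 ± 11.7 and 37.3 ± 8.33 CPM (SD, n = 3 each), and the log2 fold change of 0.38 ± 0.24 (SE, 95% interval -0.20 to 0.97) had the smallest unadjusted p among the members (0.162, edgeR adjusted p = 0.942). Leaving out 1 library at a time gave 0.23 (without PM 2) to 0.56 (without PM 1). On the FPKM scale, which divides by transcript length and depth, Calm2 made up 64.8% ± 8.29 of the sum of Calm2 and Calm3 in the PM group and 68.0% ± 6.95 in the non-PM group (SD, n = 3 each, exact two-sided permutation p = 0.8, adjusted p = 0.8 over 5 shares). With 3 against 3 samples this test cannot go below 0.1. The difference of the means, PM minus non-PM, was -3.18 percentage points, against -7.82 without PM 1, -7.14 without non-PM 3 and 0.15 without PM 2.

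A further record, Calm-ps2, is annotated as a calmodulin pseudogene. It was at 62.3, 42.6 and 60.1 CPM in PM 1 to 3, against 48.1, 53.7 and 43.4 CPM in non-PM 1 to 3. Its log2 fold change was 0.18 ± 0.19 (SE), as for Calm2, and the division of reads among near-identical calmodulin copies is not stated. The level of each calmodulin record is therefore uncertain.

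Camk2b and Camk2a were the genes that varied most from library to library, and for these the region upstream of the gene start is shown. The sequences are the 250 bases before the annotated start in RefSeq's GRCr8 assembly, a later build than the Rnor_6.0 of the counts, written 5′ to 3′ on the gene's strand. They lie at chr18:56648930-56649179 (plus strand) for Camk2a and at chr14:85147945-85148194 (minus strand) for Camk2b. Capitals mark E-boxes (CANNTG, bound by muscle regulatory factors among others) and half-sites of the cAMP response element (TGACG, or CGTCA on the other strand), the element that CREB binds.
Camk2a: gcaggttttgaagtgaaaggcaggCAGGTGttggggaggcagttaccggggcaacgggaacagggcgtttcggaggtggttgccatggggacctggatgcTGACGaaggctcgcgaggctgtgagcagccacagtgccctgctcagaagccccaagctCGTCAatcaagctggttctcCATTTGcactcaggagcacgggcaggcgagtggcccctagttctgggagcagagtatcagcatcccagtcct
Camk2b: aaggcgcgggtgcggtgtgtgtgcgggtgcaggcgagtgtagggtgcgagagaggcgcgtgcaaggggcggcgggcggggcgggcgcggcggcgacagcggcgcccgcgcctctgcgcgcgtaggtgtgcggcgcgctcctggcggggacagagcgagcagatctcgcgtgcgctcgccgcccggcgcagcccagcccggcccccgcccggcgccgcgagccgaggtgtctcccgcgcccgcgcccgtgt
The Camk2a window held 2 E-boxes and 2 half-sites, and that of Camk2b held 0 of either. Among 33469 rat promoter windows of the same length searched on both strands, 65.5% held an E-box and 18.2% a half-site. The GC content was 60.4% for Camk2a and 80.4% for Camk2b, against a median of 51.2%. Windows were matched for 5 of the 7 genes, and no full TGACGTCA element or MEF2 site was found in any of the 5, against 1.59% and 2.96% of all windows. These matches describe letters in a window, not binding.

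Camk2b, the beta subunit, was at 147.5, 259.7 and 133.4 CPM in PM 1 to 3, against 220.4, 102.8 and 595.3 CPM in non-PM 1 to 3. The non-PM group held both the lowest and the highest library, so its range enclosed the whole PM group. The means were 180.2 ± 69.2 and 306.2 ± 257.2 CPM (SD, n = 3 each), with a log2 fold change of -0.77 ± 0.64 (SE, 95% interval -2.30 to 0.76, edgeR adjusted p = 0.942). The sign rested on non-PM 3: without it the log2 fold change was 0.14, and without non-PM 2, the lowest library, it was -1.18.

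Camk2a, the alpha subunit best known from forebrain neurons, was far lower in counts, at 3.68, 13.2 and 11.5 CPM in PM 1 to 3, against 6.66, 2.14 and 15.0 CPM in non-PM 1 to 3. Again the lowest and the highest library were both in the non-PM group. The means were 9.47 ± 5.09 and 7.94 ± 6.53 CPM (SD, n = 3 each), and the log2 fold change was 0.25 ± 0.74 (SE, 95% interval -1.52 to 2.03, edgeR adjusted p = 0.963). Its sign turned to -0.07 without PM 2 and to -0.19 without non-PM 2, while without non-PM 3 it was 1.09. The highest library held 7.01 times the lowest for Camk2a and 5.79 times the lowest for Camk2b, against 1.47 to 2.21 times for the other 5 members.

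Skeletal muscle transcripts also varied between the libraries, some in the pattern of Camk2b and others not. Myh7, the slow myosin heavy chain, was at 6739, 9993 and 5369 CPM in PM 1 to 3, against 10426, 4958 and 30299 CPM in non-PM 1 to 3, so non-PM 3 was highest and non-PM 2 lowest as for Camk2b. Myh4, a fast myosin heavy chain, was at 26.9, 6341 and 6013 CPM in PM 1 to 3, against 26.3, 14.3 and 64.1 CPM in non-PM 1 to 3. Actn3, the alpha-actinin of fast fibres, was at 2.75, 1297 and 983 CPM in PM 1 to 3, against 2.54, 4.19 and 8.17 CPM in non-PM 1 to 3. Myh4 and Actn3 were thus high in PM 2 and PM 3 alone among the 6 libraries. Pvalb had the same pattern, at 6.47, 625 and 582 CPM in PM 1 to 3, against 7.20, 2.74 and 3.21 CPM in non-PM 1 to 3. The myosin Myh1 was at 169, 1947 and 799 CPM in PM 1 to 3, against 132, 83.8 and 262 CPM in non-PM 1 to 3. Some other fast-fibre transcripts were also high in non-PM 3. For Mylpf, a light chain of fast myosin, non-PM 3 stood at 1469 CPM beside 2480 and 1457 CPM in PM 2 and PM 3, and for the myosin Myh2 it stood at 2551 CPM beside 2869 and 1086 CPM. Neural markers were present at a summed share of 0.0704% to 0.108% in the PM group and of 0.0630% to 0.136% in the non-PM group. In these bulk samples, fewer cells of a type and less RNA per cell cannot be told apart, and the part of muscle or nerve in these values was not tested.

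**Figure D2:**
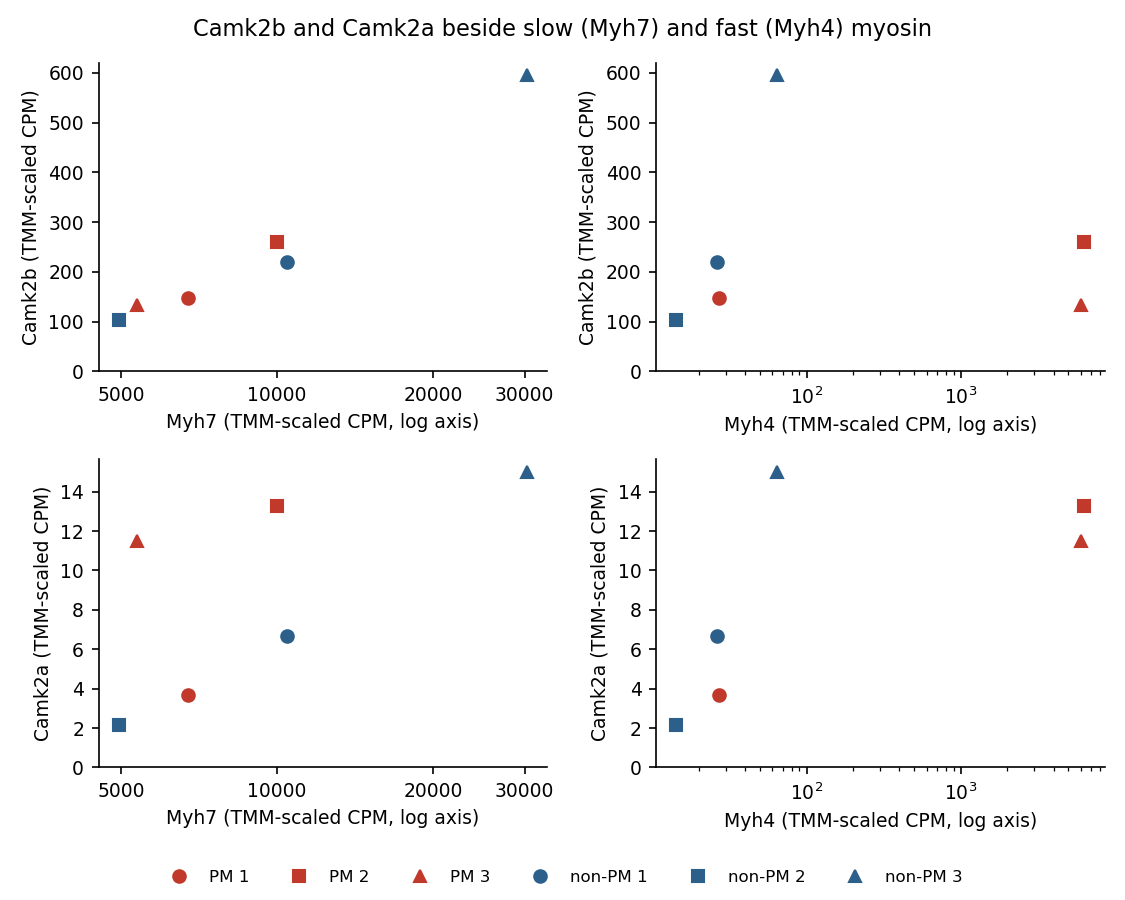
Level of Camk2b (top) and Camk2a (bottom) against slow myosin Myh7 (left) and fast myosin Myh4 (right) in the 6 libraries, all in TMM-scaled CPM, with myosin on a log axis. Camk2b and Myh7 are both highest in non-PM 3, while Myh4 is high only in PM 2 and PM 3, at 6341 and 6013 CPM.

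With the mean log2 CPM of the 20 muscle markers as a covariate in the same edgeR fit, the log2 fold change of Camk2b was -1.01 (unadjusted p = 0.0520, adjusted p = 0.438) and that of Camk2a was -0.40 (unadjusted p = 0.234). For the other 5 members it lay between -0.15 (Camk2g) and 0.30 (Calm2). Each of these stayed short of the threshold. The muscle score is itself a measured outcome of the libraries, so these values describe the fit and do not replace the group comparison. The score was 8.94, 11.49 and 10.55 in PM 1 to 3, against 9.30, 8.31 and 10.67 in non-PM 1 to 3. Unlike the summed share of muscle counts, it was thus highest in PM 2 and not in non-PM 3.

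The genes whose pattern over the 6 libraries lay closest to Camk2b, by root mean square difference of mean-centred log2 CPM over 13298 genes, were Cand2 (0.06), Gyg1 (0.07) and Art1 (0.07). For Camk2a they were Lsmem1 (0.14), Ampd1 (0.15) and Casq1 (0.17). These distances are descriptions over 6 libraries, which share depth and tissue make-up.

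The delta subunit gene Camk2d, the main CaMKII gene of heart and smooth muscle, was at 74.6, 84.3 and 91.9 CPM in PM 1 to 3, against 76.7, 55.9 and 85.6 CPM in non-PM 1 to 3. The groups overlapped on this scale, with non-PM 2 lowest and PM 3 highest. The means were 83.6 ± 8.70 and 72.8 ± 15.2 CPM (SD, n = 3 each), a log2 fold change of 0.19 ± 0.20 (SE, 95% interval -0.28 to 0.67, edgeR adjusted p = 0.942). It was 0.04 without non-PM 2 and 0.31 without non-PM 3.

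On the FPKM scale, Camk2d was at 18.6, 18.9 and 23.2 in PM 1 to 3 and at 17.5, 14.8 and 15.4 in non-PM 1 to 3. Here every PM library lay above every non-PM library, as was the case, in either direction, for 6.49% of all genes on that scale. In CPM over the unscaled library totals it was likewise 1 of 7 members without overlap, against 6.22% of all genes. Both comparisons were chosen after seeing the data. In limma on log2(FPKM + 1) without a filter, the difference was 0.33 with an unadjusted p of 0.0484. Camk2d was the 1 of 7 members past the relaxed criterion in that fit, against 297 of all genes, with no adjusted call. That fit took in every gene with an FPKM above 0 in some library rather than the 18134 genes of the main test, so its share of calls has another base. FPKM is not TMM-scaled, so whether the groups separated for Camk2d depended on the scaling.

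Camk2g, the gamma subunit gene expressed in most tissues, was at 36.3, 43.5 and 35.4 CPM in PM 1 to 3, against 34.1, 31.3 and 50.3 CPM in non-PM 1 to 3. The means of 38.4 ± 4.45 and 38.5 ± 10.3 CPM (SD, n = 3 each) were nearly equal, with a log2 fold change of -0.01 ± 0.21 (SE, 95% interval -0.52 to 0.50, edgeR adjusted p = 0.994). Without non-PM 3, its highest library, the log2 fold change was 0.21.

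The annotation splits CaMKII gamma over 3 records. The Camk2g record held 51.6% to 52.0% of their summed counts in every library, a record described as a gamma transcript variant (NEWGENE_621802) held nearly all the rest, and a gamma-like record (LOC100909586) was at 0.24 to 0.45 CPM. Summed, the 3 records were at 70.3, 83.8 and 68.0 CPM in PM 1 to 3, against 66.0, 60.5 and 97.0 CPM in non-PM 1 to 3, with a log2 fold change of -0.01 ± 0.22 (SE, unadjusted p = 0.951 in edgeR). The log2 fold change was thus the same to 2 decimals as for the single record, but the symbol alone carried only part of the level of the gamma subunit. This sum was chosen after seeing the data.

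**Figure D3:**
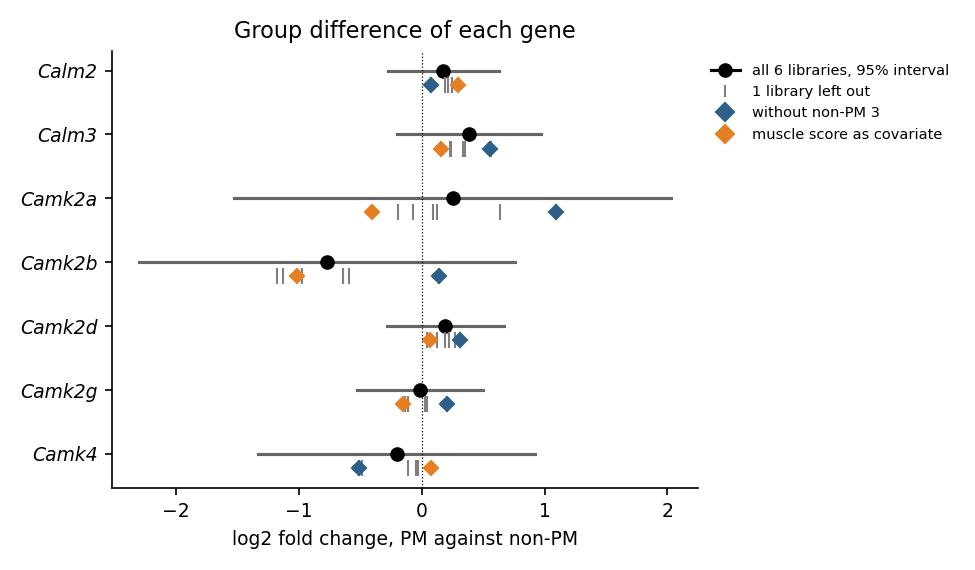
Log2 fold change of each gene, PM against non-PM, with its 95% interval (edgeR), the values after leaving out 1 library (grey ticks, with non-PM 3 in blue) and the value with the muscle score as covariate (orange). Every interval includes 0, and the interval is widest for Camk2a, from -1.52 to 2.03.

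Camk4 was the least abundant member, with 36, 26 and 49 counts in PM 1 to 3 and 47, 47 and 18 counts in non-PM 1 to 3. These correspond to 0.544, 0.484 and 0.859 CPM in PM 1 to 3 and 0.879, 0.875 and 0.399 CPM in non-PM 1 to 3. The exact Clopper-Pearson 95% interval, which covers counting error only, was 0.236 to 0.630 CPM in non-PM 3 and 0.646 to 1.17 CPM in non-PM 1. The log2 fold change was -0.20 ± 0.47 (SE, 95% interval -1.33 to 0.92, edgeR adjusted p = 0.955), and it was -0.51 without non-PM 3. The T-cell marker Cd3e was at 0.33, 0.43 and 1.12 CPM in PM 1 to 3, against 0.79, 1.29 and 0.60 CPM in non-PM 1 to 3. Other T-cell markers differed from it, Cd3g being at 0.23, 0.69 and 0.61 CPM against 0.79, 0.71 and 0.75 CPM. Cd3d was at 0.24, 0.13 and 0.18 CPM in PM 1 to 3, against 0.54, 0.56 and 0.18 CPM in non-PM 1 to 3. The log2 fold change was -0.52 for Cd3e, -0.57 for Cd3g, -1.22 for Cd3d and -0.49 for Cd2, but 0.08 for Cd8a and 0.00 for Cd4. Of the 10 lymphocyte markers checked, which include B-cell genes, 5 were above and 5 below 0, with a median of -0.01. The part of lymphocytes in the level of Camk4 was not tested.

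Compared per length in FPKM, the order of levels in the PM group was Calm2 (138.8 ± 23.2), Calm3 (74.7 ± 15.1), Camk2b (45.6 ± 15.3), Camk2d (20.2 ± 2.55), Camk2g (9.56 ± 0.633), Camk2a (5.72 ± 2.95) and Camk4 (0.0486 ± 0.0167, SD, n = 3 each). Only Calm3 and Camk2b overlapped in their spread of 1 SD. In the non-PM group Camk2b (66.5 ± 45.5) stood above Calm3 (53.5 ± 7.93), and its spread overlapped with those of both Calm2 (117.2 ± 32.2) and Calm3. This order rested on non-PM 3, since over non-PM 1 and non-PM 2 the mean was 41.2 FPKM for Camk2b and 52.7 FPKM for Calm3, a comparison chosen after seeing the data. With its 3 records summed, CaMKII gamma was at 18.4 ± 1.35 FPKM in the PM group and 17.2 ± 1.2 FPKM in the non-PM group (SD, n = 3 each), at about the level of Camk2d.

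Among the CaMKII genes, Camk2b made up the largest share of summed FPKM in all 6 libraries, at 56.1%, 63.2% and 46.9% in PM 1 to 3 and at 64.2%, 53.5% and 78.4% in non-PM 1 to 3. Camk2a made up 3.35%, 7.70% and 9.68% in PM 1 to 3 and 4.75%, 2.71% and 4.77% in non-PM 1 to 3. PM 2 and PM 3, the libraries high in Myh4, had the highest Camk2a shares, while non-PM 3, which was also high in Mylpf and Myh2, did not. In FPKM itself, however, Camk2a was nearly as high in non-PM 3 (7.12) as in PM 2 (7.68) and PM 3 (7.15). Its lower share in non-PM 3 went with Camk2b making up 78.4% of the sum there. Camk2d held 25.7% ± 6.28 and 19.6% ± 8.66, and Camk2g 12.0% ± 1.77 and 10.9% ± 4.96, of the PM and non-PM sums (SD, n = 3 each). In exact two-sided permutation tests the p was 0.3 for Camk2a, 0.4 for Camk2b, 0.5 for Camk2d and 0.8 for Camk2g, each 0.8 after adjustment. Without non-PM 3 the difference of the means, PM minus non-PM, went from -9.99 to -3.48 percentage points for Camk2b, from 6.07 to 1.43 for Camk2d and from 1.09 to -1.13 for Camk2g. For Camk2d it was 3.24 without PM 3, 9.44 without PM 2 and 10.001 without non-PM 2. All these shares and tests took the Camk2g record alone. With the 3 gamma records summed, CaMKII gamma held 20.7% ± 2.88 of the PM and 18.9% ± 8.05 of the non-PM sums (SD, n = 3 each). Camk2d then held 23.1% ± 5.51 and 17.6% ± 7.15, and Camk2b was still the largest share in every library.

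**Figure D4:**
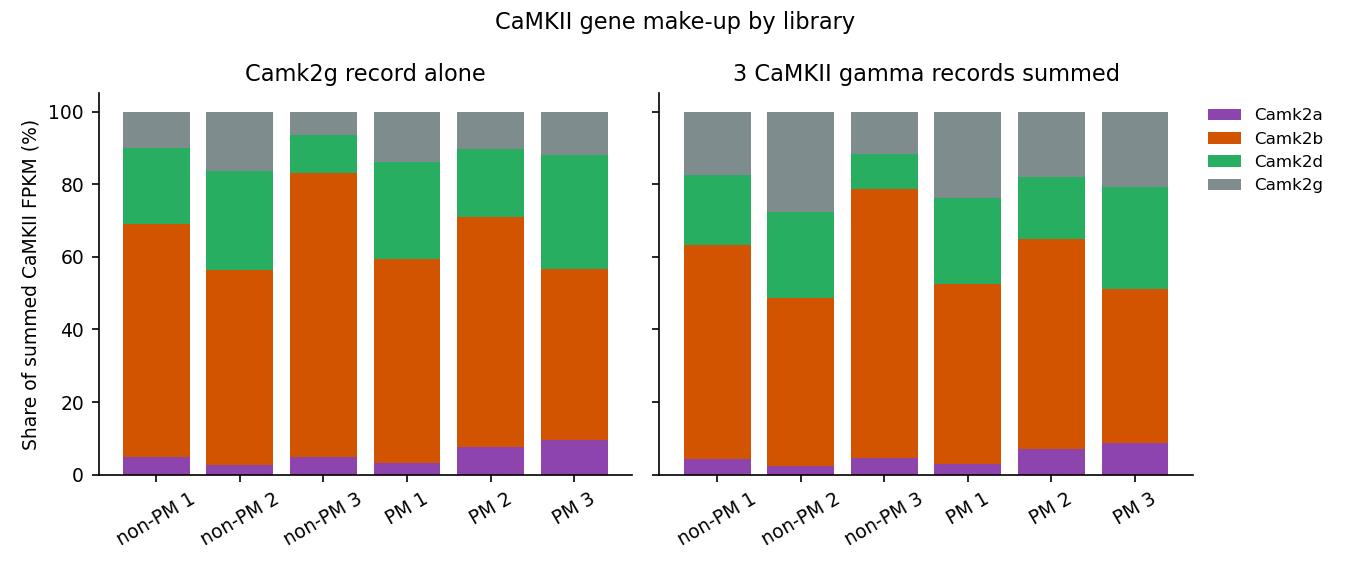
Share of each CaMKII gene in the summed CaMKII FPKM of a library, in percent, with the Camk2g record alone on the left and the 3 gamma records summed on the right. Camk2b is the largest share in all libraries, from 46.9% in PM 3 to 78.4% in non-PM 3 with the Camk2g record alone.

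The partners of these kinases were followed in 6 lists of genes. Of the CaM kinase cascade and its inhibitors, 9 of 11 genes were tested (all but Pnck and Camkv) and 0 passed the relaxed criterion (1.47% of all genes passed it upward and 1.49% downward). Their median log2 fold change was 0.26, with 8 above and 1 below 0. Camkk2, which activates Camk4, was at 0.36 ± 0.30 (SE), Ppm1f, a phosphatase that switches CaM kinases off, at 0.26 ± 0.17, the CaMKII inhibitor Camk2n1 at 0.22 ± 0.33 and Camk1 at -0.06 ± 0.30 on the log2 scale. Without non-PM 3 they were at 0.10, 0.36, 0.10 and -0.29, and Ppm1f alone then passed the relaxed criterion (unadjusted p = 0.04998, edgeR adjusted p = 0.960). Camkk2 was at 0.20 and Camk2n1 at -0.08 without PM 3, and Ppm1f at 0.16 without PM 1.

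Of 12 other calmodulin-dependent kinases, 1 passed upward and 0 downward (median log2 fold change 0.29). This was Mylk, the myosin light chain kinase of smooth muscle, at 149.6, 106.5 and 158.3 CPM in PM 1 to 3, against 83.5, 95.9 and 91.3 CPM in non-PM 1 to 3. Every PM library lay above every non-PM library, with a log2 fold change of 0.61 ± 0.21 (SE, unadjusted p = 0.0238, edgeR adjusted p = 0.942). Its unadjusted p was 0.0775 to 0.0880 without PM 1, PM 3 or non-PM 1, when it no longer passed, and 0.0513 and 0.0526 in 2 of the 3 limma fits on FPKM.

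Of 19 calmodulin-bound enzymes, 1 passed upward and 0 downward (median 0.20). Pde1b, a calmodulin-stimulated phosphodiesterase that breaks down cyclic nucleotides, was at 5.49, 5.02 and 7.60 CPM in PM 1 to 3, against 2.90, 4.41 and 3.61 CPM in non-PM 1 to 3. The groups did not overlap, and the log2 fold change was 0.72 ± 0.27 (SE, unadjusted p = 0.0352, edgeR adjusted p = 0.942). Without PM 1, PM 3, non-PM 1 or non-PM 3 the unadjusted p was 0.0582 to 0.127, and with library totals it was 0.0708. In 2 of the 3 limma fits on FPKM the p of Pde1b was 0.0532 and 0.0549. Of 17 calmodulin-binding and buffering proteins 0 passed (median 0.01), the actin-binding caldesmon gene Cald1 being at 0.43 ± 0.39, Marcks at 0.31 ± 0.38, Camsap2 at 0.23 ± 0.18 and the transcription factor gene Camta1 at -0.65 ± 0.36 on the log2 scale (SE). Without non-PM 3 these values were 0.18, -0.02, 0.11 and -0.19 in the same order. Camta1 was at 37.3 CPM in non-PM 3, against 12.1 to 18.4 CPM in the other 5 libraries, and without PM 1 Cald1 was at 0.14. With the muscle score as covariate, Cald1 (0.82), Marcks (0.77) and Camta1 (-0.82) passed the relaxed criterion in edgeR, each with an adjusted p of 0.438. Calls were common in that fit, where 1944 of all genes tested passed, against 537 in the main fit. Of this list, only the genes named here were looked at with the covariate.

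Of 18 transcriptional regulators downstream of CaM kinases, 1 passed upward and 0 downward (median 0.03). Creb1, the gene of the transcription factor CREB and one that the study itself names from these samples, was at 38.3, 30.7 and 40.4 CPM in PM 1 to 3, against 26.6, 26.3 and 26.4 CPM in non-PM 1 to 3. The groups did not overlap, with a log2 fold change of 0.46 ± 0.15 (SE, unadjusted p = 0.0188, edgeR adjusted p = 0.942). Without PM 1, PM 3 or non-PM 1 the unadjusted p was 0.0586 to 0.0716, and with library totals or in the 3 limma fits on FPKM it was 0.0572 to 0.0724, so that Creb1 did not pass there either.

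Of 13 calcium-cycling substrates of CaMKII, 1 passed upward and 1 downward (median 0.03). Ryr2, the calcium release channel of heart muscle, was low throughout, at 1.59, 1.86 and 1.96 CPM in PM 1 to 3, against 0.692, 1.30 and 0.775 CPM in non-PM 1 to 3, without overlap of the groups. Its log2 fold change was 0.95 ± 0.36 (SE, unadjusted p = 0.0352, edgeR adjusted p = 0.942), and in 5 of 6 fits with 1 library left out the unadjusted p was 0.0578 to 0.106, all but that without non-PM 2. With library totals it was 0.0751. In limma on log2(FPKM + 1) without a filter the difference was 0.07, with an unadjusted p of 0.0256. Ryr2 was at 0.0335 to 0.113 FPKM, so with a pseudocount of 1 it could not reach the minimum fold in that fit. Sln, the gene of sarcolipin, which slows the calcium pump of muscle, was at 61.1, 30.4 and 29.6 CPM in PM 1 to 3, against 94.6, 56.9 and 127.7 CPM in non-PM 1 to 3. PM 1 lay above non-PM 2, so the groups overlapped, and the log2 fold change was -1.21 ± 0.40 (SE, unadjusted p = 0.0208, edgeR adjusted p = 0.942). Without PM 2, PM 3 or non-PM 3 its unadjusted p was 0.0524 to 0.0758. None of the 5 genes that passed the relaxed criterion passed the adjusted threshold.

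**Figure D5:**
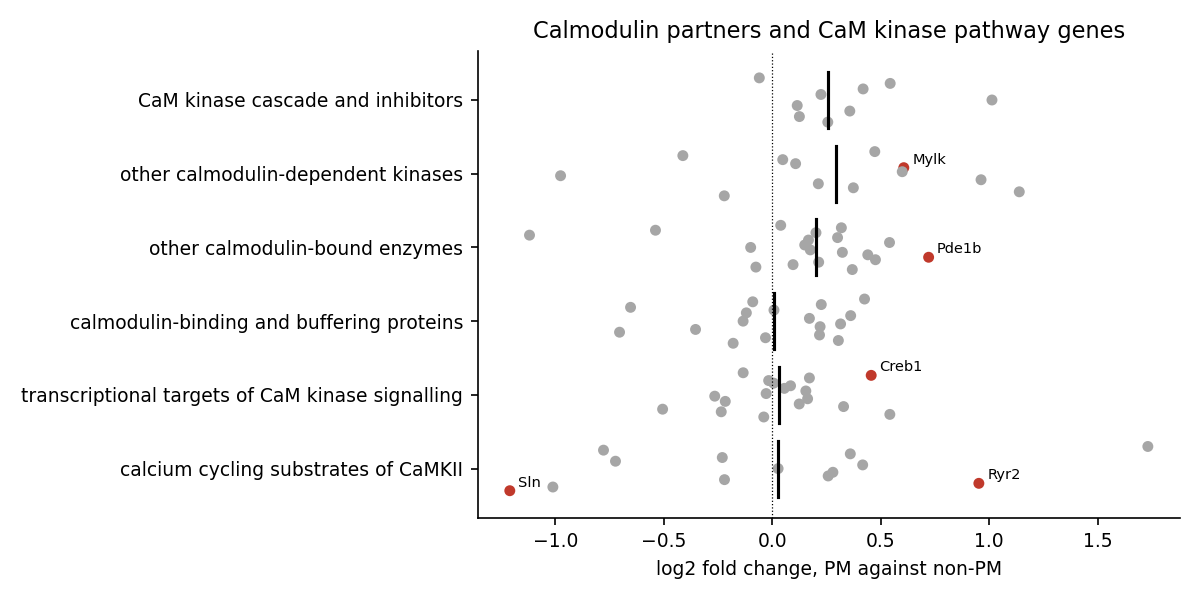
Log2 fold change of each tested gene of the 6 lists, PM against non-PM, with genes past the relaxed criterion in red and the list median as a black line. The 5 red genes are Mylk, Pde1b, Creb1 and Ryr2 above 0 and Sln below 0, at -1.21.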

How the data were processed

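The kit was stranded and poly(A)-selecting, and sequencing was paired-end. Per the labels, reads were handled with FastQC 0.11.7, Trimmomatic 0.38 and HISAT2 2.1.0 on Rnor_6.0, and the study names StringTie for assembly. The authors deposited raw read counts per gene and, in the same table, FPKM values (fragments scaled by transcript length and depth). Counting strand and the treatment of multi-mapped reads are not given in the sources used here. Of 37991 genes listed, 12229 had no count.

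The main test of the counts was that of edgeR 4.0.16 in R 4.3.3 (filterByExpr, TMM, two-sided quasi-likelihood test, group as the only term), with Benjamini-Hochberg adjustment over 18134 genes. Each SE was derived by dividing the size of the log2 fold change by the root of F. FPKM was used to compare levels between genes, and in limma 3.58.1 as an alternative, with a pseudocount of 1 or 0.1. DESeq2 1.42.0 was another alternative. Scripts were tested on simulated data.

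All 7 members were named whatever their values. From each pathway list, genes past either criterion were named, or otherwise the 2 with the smallest p and the 2 with the highest mean FPKM. Nearest patterns were sought for members whose highest library exceeded their lowest over 4 times in CPM, among genes of mean FPKM 1 or more (prior count 2). The members and lists were chosen with earlier results of these data known. The labels number the samples without naming an animal, while the study's methods describe 3 tendons per group for RNA-seq. No library pair was a duplicate (lowest chi-square per degree of freedom 189.6). A further calmodulin gene is not reported here.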

Additional observations from a re-analysis of the deposited data

How the results depend on the processing

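Calm2, Calm3 and Camk2d kept the sign of their log2 fold change under all 15 alternatives each, and no member passed the adjusted threshold in any fit. Camk2g, near 0, changed sign with library totals (0.084), without a filter (0.00014), in limma on log2(FPKM + 1) (0.091 with and without the filter) or log2(FPKM + 0.1) (0.099) and with the replicate block (0.01), and leaving out 1 library gave -0.13 to 0.21. With the muscle score as covariate Camk2a was at -0.40 and Camk4 at 0.074. Leaving out 1 library gave -0.19 to 1.09 for Camk2a and -1.18 to 0.14 for Camk2b. Camk1 was at 0.0055 (limma, pseudocount 1, with and without the filter), 0.013 (pseudocount 0.1), 0.017 (replicate block) and 0.27 (covariate), with -0.29 to 0.34 on leaving out 1 library. That range was -0.080 to 0.51 for Camk2n1 and -0.017 to 0.69 for Marcks. The cause of these changes was not tested. Camk4 fell below the mean FPKM minimum of 0.1 and has no value in the filtered limma fits.

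Against 537 genes past the relaxed criterion, 294 passed with library totals, 846 in the DESeq2 Wald test, 293 and 305 in limma with pseudocounts of 1 and 0.1, 297 without the filter, 1944 with the covariate, and 206 (without PM 3) to 1209 (without non-PM 2) on leaving out 1 library. DESeq2 called 8 genes at the adjusted threshold, against 0. In limma without the filter 1 member (Camk2d) passed the relaxed criterion, and 1 member (Camk2d) had groups apart on FPKM and 1 (Camk2d) on CPM over library totals, comparisons chosen after seeing the data. Relative to TMM, the median of all genes shifted by 0.10 in limma with a pseudocount of 0.1. Same-numbered samples did not deviate together (correlations of -0.17, -0.39 and -0.31), no sample correlated best with its own number, and the fit with the replicate block called 155 genes, without Mylk, Pde1b, Creb1 and Ryr2 (unadjusted p = 0.0639 to 0.0895). Depth limits Camk4 most, with 18 to 49 counts per library.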

Other observations

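Of the calmodulin-like genes outside the 7 members, Calml3 and Calml5 were highest in non-PM 2 and Calml4 was even. Calml3 was at 4.28, 3.31 and 5.10 CPM in PM 1 to 3, against 4.25, 44.6 and 1.75 CPM in non-PM 1 to 3. Calml5, a gene of differentiating epidermis in humans, had 0, 0 and 21 counts in PM 1 to 3 and 0, 996 and 0 counts in non-PM 1 to 3. Only non-PM 2 and PM 3 were thus above the floor of 3 counts. Calml4 was low throughout, its highest library being at 1.67 CPM. The keratinocyte genes Krt5 and Dsp were at 145.8 and 259.5 CPM in non-PM 2, whose summed keratinocyte share of 0.0586% compared with at most 0.00085% in the other 5 libraries. Krt14 was at 94.2 CPM there. Krt1 and Krt10 stayed low in non-PM 2, at 0.67 and 5.66 CPM, against at most 0.35 and 3.59 CPM in the other 5 libraries.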
